A study of Mus musculus with 8 samples.

Results

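Retrogenes are gene copies that arose when a messenger RNA was reverse transcribed and inserted at another place in the genome, which is why most of them lack the introns of the gene they came from. During male meiosis the X and Y chromosomes are packed into the sex body and transcriptionally silenced at pachynema, in meiotic sex chromosome inactivation. Several X-linked genes with general cellular functions have an autosomal retrogene that is expressed in germ cells during and after this silencing, and the retrogene RNA is known to stand in for that of the silenced parent. The 10 retrogenes described here were chosen by name, under a rule that uses no expression value, as autosomal germ cell copies of X-linked parents, and they are 10 of the 21058 genes listed in the deposited tables. They are *Pgk2*, *Pdha2*, *Gk2* and *Gykl1*, which encode metabolic enzymes, *Rpl10l* and *Utp14b*, which serve the ribosome, *Cstf2t* and *Rbmxl2*, which encode RNA-processing proteins, *Cetn1*, which encodes a centrin, and *Ubl4b*, which encodes a ubiquitin-like protein. Their parents are the 9 X-linked genes *Pgk1*, *Pdha1*, *Gk*, *Rpl10*, *Utp14a*, *Cstf2*, *Rbmx*, *Cetn2* and *Ubl4a*, where *Gk* is the parent of both *Gk2* and *Gykl1*.

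The retrogenes were measured by mRNA sequencing of pachytene spermatocytes from adult males, purified from pooled testes by Sta-Put sedimentation, in 4 *Arid1a* WT and 4 *Arid1a* cKO libraries. ARID1A is a putative DNA-binding subunit of the canonical BAF chromatin remodeling complex. *Arid1a* cKO mice were homozygous for a floxed *Arid1a* allele and carried a *Stra8-Cre* transgene, which is expressed from spermatogonia onward, and *Arid1a* WT males had 1 or both *Arid1a* alleles floxed and no *Cre* transgene, so that every animal carried a floxed allele (*Arid1a* fl/fl, *Stra8-Cre* Tg/0 against *Arid1a* fl/fl or *Arid1a* fl/+, floxed line on CD1). Excision was incomplete in this model, and some pachytene cells of *Arid1a* cKO testes keep ARID1A. Levels are given in TPM, an abundance scaled to transcript length and to library size. *Arid1a* itself measured 19.6, 26.01, 26.00 and 19.1 TPM in the *Arid1a* WT libraries and 14.7, 15.5, 16.3 and 15.7 TPM in the *Arid1a* cKO libraries, and the groups did not overlap (log2 fold change -0.51, SE 0.07, edgeR adjusted p = 2.31e-05). Estimated counts summed to 18308688 to 22044507 per library in *Arid1a* WT and to 15850961 to 21626772 in *Arid1a* cKO.

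The wider libraries differed strongly, and each count of retrogenes is read against that background. Calls required an adjusted p (Benjamini-Hochberg, over the 17643 genes tested in edgeR) of at most 0.05. Among 16800 autosomal genes tested 34.9% were called higher and 38.7% lower in *Arid1a* cKO, and among 799 X-linked genes tested 66.6% were called higher and 12.6% lower. All 15 spermatid markers were called higher, by log2 fold changes of 1.79 to 2.36, and their summed level was 6963 to 7937 TPM in *Arid1a* WT and 28387 to 30222 TPM in *Arid1a* cKO. All 7 Sertoli cell markers were called lower (364 to 429 TPM in *Arid1a* WT and 92.9 to 101 TPM in *Arid1a* cKO), as were all 6 Leydig cell markers (79.7 to 92.4 TPM in *Arid1a* WT and 6.83 to 9.08 TPM in *Arid1a* cKO). Of 6 macrophage markers 5 were called higher (4.74 to 5.82 TPM in *Arid1a* WT and 11.3 to 13.1 TPM in *Arid1a* cKO), and of 7 spermatogonial markers 6 were called higher (75.5 to 82.2 TPM in *Arid1a* WT and 102 to 111 TPM in *Arid1a* cKO). Of 8 pachytene markers 2 were called higher and 6 lower (7409 to 8350.1 TPM in *Arid1a* WT and 5625 to 5899.7 TPM in *Arid1a* cKO), with *Piwil1*, which encodes a pachytene piRNA-binding protein, at a log2 fold change of -3.88. Of 6 leptotene and zygotene markers 4 were called higher and 2 lower (139 to 164 TPM in *Arid1a* WT and 80.7 to 84.6 TPM in *Arid1a* cKO), with a median log2 fold change of 1.24, and the lower sum came from *Spo11*, at mean levels of 108 and 16.1 TPM. No marker was at 0 in every library. The part that these shifts have in the retrogene values was not tested, and in bulk RNA fewer cells of a type and less RNA per cell cannot be told apart.

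Of the 10 retrogenes, all of which passed the count filter, 5 were called higher (*Pgk2*, *Gykl1*, *Ubl4b*, *Utp14b* and *Gk2*), 2 were called lower (*Cstf2t* and *Pdha2*) and 3 were not called (*Rpl10l*, *Cetn1* and *Rbmxl2*). The median log2 fold change of the 10 was 0.27, against -0.06 over all autosomal genes tested. CPM (counts scaled to library size) of the groups did not overlap for 7 of 10 retrogenes, and the same held for 68.9% of all genes tested. Of the 9 parents 8 were called higher and *Rpl10* was not called, with a median log2 fold change of 1.03 against 1.32 over all X-linked genes tested. In every library each retrogene other than *Utp14b* and *Cstf2t* accounted for 93.5% or more of the TPM of its pair. The summed level of the 10 retrogenes was 2409 to 2826 TPM in *Arid1a* WT and 3361 to 3497 TPM in *Arid1a* cKO, and that of the 9 parents was 41.7 to 52.9 and 143 to 151 TPM. In *Arid1a* WT the order of mean levels was *Cetn1* (686 TPM), *Gk2* (627), *Rpl10l* (355), *Gykl1* (299), *Pgk2* (272), *Pdha2* (196), *Rbmxl2* (93.5), *Ubl4b* (34.2), *Cstf2t* (30.3) and *Utp14b* (10.2), where *Cetn1* and *Gk2* overlapped, as did *Gykl1* and *Pgk2*. In *Arid1a* cKO *Gk2* (755 TPM), *Pgk2* (701) and *Cetn1* (673) had the highest means, where *Gk2* overlapped *Pgk2* and *Pgk2* overlapped *Cetn1*, and *Cstf2t* was last (9.58).

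**Figure D1:**
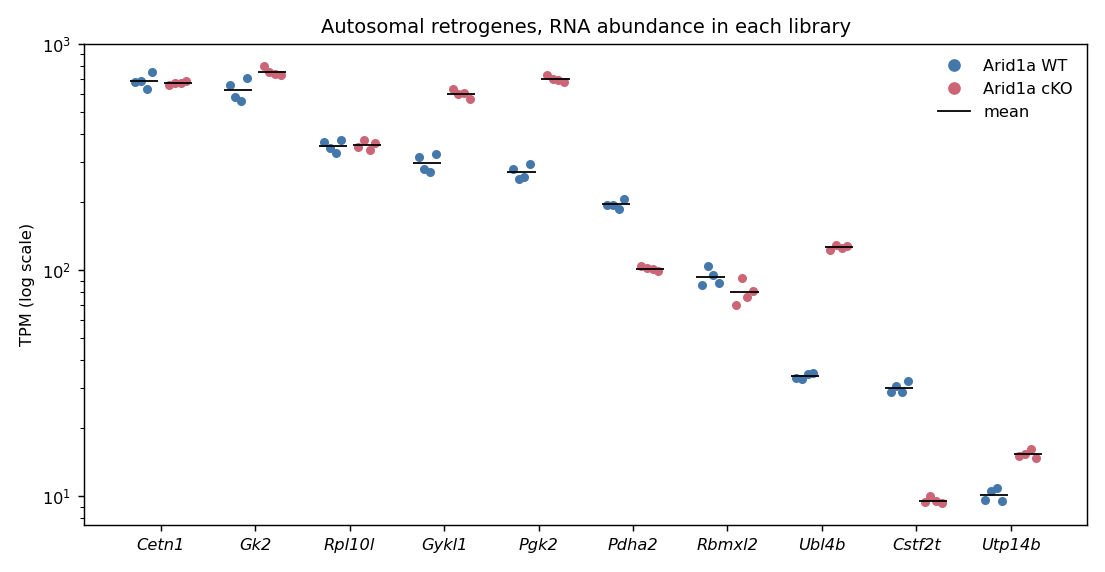
TPM (log axis) of each of the 10 retrogenes in the 4 Arid1a WT and 4 Arid1a cKO libraries, each point 1 library and each line a group mean. Pgk2, Gykl1 and Ubl4b stand well above their Arid1a WT values in Arid1a cKO, Cstf2t and Pdha2 stand below, and the groups overlap for Cetn1, Rpl10l and Rbmxl2.

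The coding sequences show how far each copy has diverged from its parent. The first 60 coding bases of a pair whose retrogene rose (*Pgk2*), of the pair that moved furthest apart (*Cstf2t*) and of the pair with the closest coding sequences (*Rpl10l*) are given 5′ to 3′ from the GENCODE M21 transcripts on GRCm38, with the bases that differ within a pair in capitals.
Pgk2: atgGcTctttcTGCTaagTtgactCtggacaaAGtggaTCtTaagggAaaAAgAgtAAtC
Pgk1: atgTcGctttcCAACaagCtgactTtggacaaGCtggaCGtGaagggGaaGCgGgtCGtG
Cstf2t: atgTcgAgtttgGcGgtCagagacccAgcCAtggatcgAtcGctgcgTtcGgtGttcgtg
Cstf2: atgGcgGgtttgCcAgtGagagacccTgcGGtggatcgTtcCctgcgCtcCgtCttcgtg
Rpl10l: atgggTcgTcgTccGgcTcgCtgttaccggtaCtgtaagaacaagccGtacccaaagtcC
Rpl10: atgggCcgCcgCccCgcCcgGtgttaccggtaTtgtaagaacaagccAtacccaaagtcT

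The *Pgk2* window lies at chr17:40208476-40208535 on the minus strand and differs from *Pgk1* at 20 of 60 bases. The *Cstf2t* window lies at chr19:31083066-31083125 on the plus strand and differs from *Cstf2* at 13 of 60 bases. The *Rpl10l* window lies at chr12:66284298-66284357 on the minus strand and differs from *Rpl10* at 9 of 60 bases. Over the aligned coding sequences the identity between retrogene and parent ran from 69.9% for *Rbmxl2* to 84.7% for *Rpl10l*. No 31-base word of the transcripts was shared between retrogene and parent in any pair other than *Gk2* and *Gk*, where 2.49% of the *Gk2* words also occurred in *Gk*. *Pgk2*, *Pdha2*, *Cetn1*, *Cstf2t* and *Ubl4b* shared no word with any other gene, while 23.4% of the *Rpl10l* words occurred in the predicted gene *Gm14460*, so *Rpl10l* values carry more uncertainty. Among the parents, 54.7% of the *Pgk1* words and 37.0% of the *Rpl10* words occurred in other genes, mostly *Pgk1-rs7* and *Rpl10-ps3*. By shared words alone, these 2 parents are the least certain. In the annotation all transcripts of 8 of the 10 retrogenes have a single exon, *Cetn1* has transcripts of 1 and of 2 exons, and *Utp14b* has transcripts of 3 and 4 exons only.

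The promoter windows of 4 retrogenes that were called, *Pgk2* and *Ubl4b* (higher) and *Pdha2* and *Cstf2t* (lower), and of the parent with the largest rise, *Cstf2*, are given from RefSeq on GRCm38.p6. Each runs 5′ to 3′ from 250 bases before to 50 bases after the annotated start of the gene. Capitals mark matches, on either strand, to the GC box (GGGCGG), the CCAAT box, the TATA motif spelled TATAAA, the sequence TGACG (the half-site of the cyclic AMP response element) and TGACGTCA (the full element, which contains the half-site).
Pgk2, chr17:40208560-40208859, minus strand: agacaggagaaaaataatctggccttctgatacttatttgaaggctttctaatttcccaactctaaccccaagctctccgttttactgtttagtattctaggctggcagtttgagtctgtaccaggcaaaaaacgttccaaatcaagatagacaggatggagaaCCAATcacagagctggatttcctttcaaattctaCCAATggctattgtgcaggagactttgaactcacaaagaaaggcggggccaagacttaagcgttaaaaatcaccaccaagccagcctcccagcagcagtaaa
Ubl4b, chr3:107555024-107555323, minus strand: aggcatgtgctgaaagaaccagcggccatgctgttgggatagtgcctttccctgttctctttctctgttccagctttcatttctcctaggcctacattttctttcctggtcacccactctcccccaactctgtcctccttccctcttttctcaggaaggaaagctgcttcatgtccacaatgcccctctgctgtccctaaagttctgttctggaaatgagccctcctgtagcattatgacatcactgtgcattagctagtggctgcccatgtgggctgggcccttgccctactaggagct
Pdha2, chr3:141212306-141212605, minus strand: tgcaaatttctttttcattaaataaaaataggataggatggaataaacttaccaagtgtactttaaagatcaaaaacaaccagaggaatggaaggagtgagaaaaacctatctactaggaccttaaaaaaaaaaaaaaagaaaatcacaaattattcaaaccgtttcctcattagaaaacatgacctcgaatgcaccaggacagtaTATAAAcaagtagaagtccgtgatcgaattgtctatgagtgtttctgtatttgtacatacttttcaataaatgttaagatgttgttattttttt
Cstf2t, chr19:31082591-31082890, plus strand: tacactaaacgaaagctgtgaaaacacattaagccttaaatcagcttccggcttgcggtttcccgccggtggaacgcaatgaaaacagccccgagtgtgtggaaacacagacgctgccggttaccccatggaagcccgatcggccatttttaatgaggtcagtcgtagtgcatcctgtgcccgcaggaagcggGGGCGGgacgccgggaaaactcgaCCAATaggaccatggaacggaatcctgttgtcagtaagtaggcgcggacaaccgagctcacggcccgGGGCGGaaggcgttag
Cstf2, chrX:134058926-134059225, plus strand: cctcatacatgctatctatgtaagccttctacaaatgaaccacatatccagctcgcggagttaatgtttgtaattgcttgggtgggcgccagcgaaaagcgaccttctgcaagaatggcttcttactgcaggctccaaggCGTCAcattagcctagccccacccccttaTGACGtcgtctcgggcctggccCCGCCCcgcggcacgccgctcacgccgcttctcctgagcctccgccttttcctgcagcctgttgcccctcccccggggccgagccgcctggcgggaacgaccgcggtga

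RefSeq windows were matched for 8 of the 10 retrogenes (*Pgk2*, *Pdha2*, *Gk2*, *Rpl10l*, *Utp14b*, *Cstf2t*, *Rbmxl2* and *Ubl4b*) and for all 9 parents. The *Pgk2* window held 2 matches to CCAAT, and 37.4% of all 32544 windows of this length hold at least 1. The *Cstf2t* window held 2 GC boxes and 1 CCAAT, and that of *Cstf2* held 1 GC box and 2 half-sites. The background was 35.9% for at least 1 GC box and 20.9% for at least 1 half-site. *Pdha2* held 1 TATAAA, against 13.6% of all windows, and no capitalised motif was found in the windows of *Ubl4b*, *Gk2* and *Utp14b*. The full response element, present in 1.80% of all windows, was in none of the 17 windows searched. AACNG, the core of the MYB motif, occurred in the windows of all 8 retrogenes and in 80.2% of all windows. CpG dinucleotides numbered 1 in the *Ubl4b* window, 4 in those of *Pgk2* and *Pdha2*, 5 in *Gk2*, 13 in *Rpl10l*, 26 in *Cstf2t*, 29 in *Rbmxl2* and 40 in *Utp14b*. The parents held 11 (*Rbmx*) to 28 (*Ubl4a*), and the median over all windows was 7. Of the 5 retrogenes called higher, *Pgk2*, *Ubl4b*, *Gk2* and *Utp14b* thus spanned both ends of this range, and *Gykl1* had no matched window. The upper end rests on *Utp14b* alone. Its window (chr1:78658190-78658489, plus strand) lies downstream of the gene start given below (78657825), which is also the start of *Acsl3*.

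Among the metabolic enzymes *Pgk2* had the largest log2 fold change. It encodes the phosphoglycerate kinase of germ cells, a glycolytic enzyme of sperm, and lies at chr17:40207018-40208609 (GRCm38.p6). *Pgk2* measured 279, 254, 259 and 295 TPM in the *Arid1a* WT libraries and 730.3, 701, 696 and 678 TPM in the *Arid1a* cKO libraries. All *Arid1a* cKO libraries were above all *Arid1a* WT libraries, with means going from 272 ± 18.8 to 701 ± 21.7 TPM (SD, n = 4 each). The difference was far larger than the spread between replicates (log2 fold change 1.5, SE 0.07, edgeR adjusted p = 7.03e-11). *Pgk1*, the somatic enzyme, measured 4.88, 4.95, 6.77 and 4.398 TPM in the *Arid1a* WT libraries and 8.73, 7.26, 8.12 and 7.36 TPM in the *Arid1a* cKO libraries and was also called higher (log2 fold change 0.73, SE 0.12, edgeR adjusted p = 4.85e-05). The share of *Pgk2* in the pair's TPM went from 98.1% ± 0.458 to 98.9% ± 0.0724. The 3 autosomal genes whose centred log2 CPM lay closest to that of *Pgk2* over the 8 libraries, among 5595 candidates, were *Zswim2* (Euclidean distance 0.0666), *Ppp2r2d* (0.0997) and *Ddx20* (0.106).

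*Pdha2* and the glycerol kinase copies went in different directions. *Pdha2*, at chr3:141210004-141212355, encodes the testis form of the E1 alpha subunit of pyruvate dehydrogenase, which feeds pyruvate into the citric acid cycle. *Pdha2* measured 195, 195, 187 and 207 TPM in the *Arid1a* WT libraries and 105, 102, 101 and 98.9 TPM in the *Arid1a* cKO libraries, and each *Arid1a* cKO value lay below each *Arid1a* WT value (log2 fold change -0.81, SE 0.06, edgeR adjusted p = 8.07e-09). *Pdha1* was low in both genotypes, at 1.29 to 1.600 and 1.56 to 1.97 TPM, ranges that overlap, and it was called higher (log2 fold change 0.50, SE 0.16, edgeR adjusted p = 0.0105). That call was lost with transcript length offsets and in limma on log2 TPM.

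*Gk2* (chr5:97455130-97457023) and *Gykl1* (on chromosome 18, positions 52693679 to 52695593) encode glycerol kinase-like proteins of germ cells. *Gk2* measured 660.2, 586, 558 and 705 TPM in the *Arid1a* WT libraries and 801, 750.1, 738 and 729.9 TPM in the *Arid1a* cKO libraries, so the *Arid1a* cKO libraries were all higher and the lowest of them stood close to the highest *Arid1a* WT library (log2 fold change 0.40, SE 0.09, edgeR adjusted p = 6.80e-04). *Gykl1* measured 317, 279.8, 271 and 328 TPM in the *Arid1a* WT libraries and 635, 603, 610.5 and 569 TPM in the *Arid1a* cKO libraries, all *Arid1a* cKO values being above all *Arid1a* WT values (log2 fold change 1.15, SE 0.08, edgeR adjusted p = 7.40e-09). *Gk*, which phosphorylates glycerol in somatic cells, had few reads, with 10 to 15 counts per library in *Arid1a* WT against 28 to 40 in *Arid1a* cKO (log2 fold change 1.75, SE 0.22, edgeR adjusted p = 5.60e-06). Its TPM of 0.245, 0.224, 0.349 and 0.7703 in *Arid1a* WT and 1.43, 0.748, 1.91 and 1.19 in *Arid1a* cKO overlapped between the groups. The *Gk* log2 fold change ran from 0.73 in limma on log2(TPM + 1) to 2.07 with transcript length offsets, and the call held in all 17 alternatives.

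*Cstf2t* and *Cstf2* moved furthest apart. Both encode the RNA-binding subunit of the cleavage stimulation factor, which binds the RNA downstream of the polyadenylation site, and *Cstf2t* is needed for male fertility in mice. *Cstf2t* (chr19:31082841-31086592), which lies within the span of *Prkg1* on the opposite strand, measured 28.99, 30.9, 28.9 and 32.3 TPM in the *Arid1a* WT libraries and 9.43, 10, 9.55 and 9.34 TPM in the *Arid1a* cKO libraries. *Cstf2*, on the X chromosome, measured 15.6, 16.1, 17.1 and 18.4 TPM in the *Arid1a* WT libraries and 76.5, 81.1, 80.98 and 76.4 TPM in the *Arid1a* cKO libraries. Neither gene overlapped between the genotypes. *Cstf2t* fell (log2 fold change -1.52, SE 0.06, edgeR adjusted p = 9.69e-12), a 2.87-fold lower CPM, and *Cstf2* rose (log2 fold change 2.21, SE 0.05, edgeR adjusted p = 6.87e-14), a 4.62-fold higher CPM. The share of *Cstf2t* in the pair's TPM went from 64.3% ± 1.28 to 10.8% ± 0.206, and the more abundant RNA of the pair was the retrogene in every *Arid1a* WT library and the parent in every *Arid1a* cKO library.

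*Rbmxl2* (chr7:107209445-107210916) encodes hnRNP G-T, a germ cell regulator of splicing in meiosis, and was not called. It measured 86.2, 105, 95.3 and 87.8 TPM in the *Arid1a* WT libraries and 69.8, 92.3, 76.00 and 81.2 TPM in the *Arid1a* cKO libraries, and the groups overlapped (log2 fold change -0.09, SE 0.07, edgeR adjusted p = 0.281). It was called lower in 4 of 17 alternative analyses. *Rbmx* measured 2.74, 2.34, 3.001 and 2.15 TPM in the *Arid1a* WT libraries and 4.26, 5.15, 4.995 and 4.94 TPM in the *Arid1a* cKO libraries and rose (log2 fold change 1.01, SE 0.12, edgeR adjusted p = 2.66e-06).

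Both *Utp14b* and *Utp14a* rose, the parent by more. *Utp14b* (chr1:78657825-78667601) encodes a component of the small-subunit processome needed for spermatogonial differentiation. Its annotated start is the same as that of *Acsl3*, which lies on the same strand. *Utp14b* measured 9.64, 10.6, 10.9 and 9.497 TPM in the *Arid1a* WT libraries and 15.04, 15.3, 16.3 and 14.8 TPM in the *Arid1a* cKO libraries, without overlap (log2 fold change 0.45, SE 0.07, edgeR adjusted p = 3.15e-05). *Utp14a* measured 6.703, 6.73, 8.76 and 5.74 TPM in the *Arid1a* WT libraries and 25.3, 24.5, 25.3 and 25.7 TPM in the *Arid1a* cKO libraries and rose more (log2 fold change 2.05, SE 0.08, edgeR adjusted p = 1.26e-11). *Utp14b* shifted from 59.5% ± 3.01 to 37.9% ± 1.11 of the pair's TPM. With transcript length offsets its log2 fold change was 0.70 in place of 0.45, and that of *Utp14a* was 1.96.

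*Rpl10l* (chr12:66283379-66284401) encodes a large ribosomal subunit protein required for the meiotic divisions in male mice. *Rpl10l* measured 368, 346, 330.1 and 377 TPM in the *Arid1a* WT libraries and 351, 376, 342 and 363 TPM in the *Arid1a* cKO libraries, and the groups overlapped (log2 fold change 0.14, SE 0.07, edgeR adjusted p = 0.0664). It was called higher in 6 of 17 alternatives, with log2 fold changes over all 17 of 0.01 to 0.21. *Rpl10* measured 7.12, 11.9, 8.53 and 3.09 TPM in the *Arid1a* WT libraries and 11.1, 13.9, 5.799 and 9.51 TPM in the *Arid1a* cKO libraries, with no separation of the genotypes (log2 fold change 0.56, SE 0.31, edgeR adjusted p = 0.123). The share of *Rpl10l* in the pair's TPM went from 97.9% ± 1.06 to 97.3% ± 0.813.

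*Ubl4b* showed the largest rise of the 10. It encodes a ubiquitin-like protein of spermatids and lies at chr3:107553698-107555073. *Ubl4b* measured 33.4, 33.1, 34.9 and 35.2 TPM in the *Arid1a* WT libraries and 122, 129, 126 and 128 TPM in the *Arid1a* cKO libraries. The *Arid1a* cKO libraries lay in a narrow band well above the *Arid1a* WT libraries (log2 fold change 2.02, SE 0.05, edgeR adjusted p = 1.00e-13), a 4.06-fold higher CPM. The median log2 fold change of the spermatid markers was 2.14, and their part in the *Ubl4b* value was not tested. *Ubl4a*, a subunit of the complex that chaperones tail-anchored membrane proteins, measured 1.42, 2.02, 2.26 and 2.45 TPM in the *Arid1a* WT libraries and 5.87, 5.16, 4.904 and 6.16 TPM in the *Arid1a* cKO libraries and rose by less (log2 fold change 1.03, SE 0.14, edgeR adjusted p = 1.25e-05).

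*Cetn1* (chromosome 18, positions 9618419 to 9619469) encodes a centrin of the sperm centriole and basal body, and its RNA was among the most abundant of the 10 in both genotypes. *Cetn1* measured 678, 685, 633 and 749.7 TPM in the *Arid1a* WT libraries and 658, 674, 673 and 688 TPM in the *Arid1a* cKO libraries, and the groups overlapped (log2 fold change 0.10, SE 0.07, edgeR adjusted p = 0.166). Its log2 fold change ranged from -0.03 in limma on log2 TPM to 0.18 without *Arid1a* WT replicate 4, the only one of the 17 alternatives that called it. *Cetn2* measured 5.19, 4.54, 4.595 and 3.16 TPM in the *Arid1a* WT libraries and 11.6, 11.7, 10.8 and 10.4 TPM in the *Arid1a* cKO libraries and rose (log2 fold change 1.46, SE 0.12, edgeR adjusted p = 3.05e-08).

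**Figure D2:**
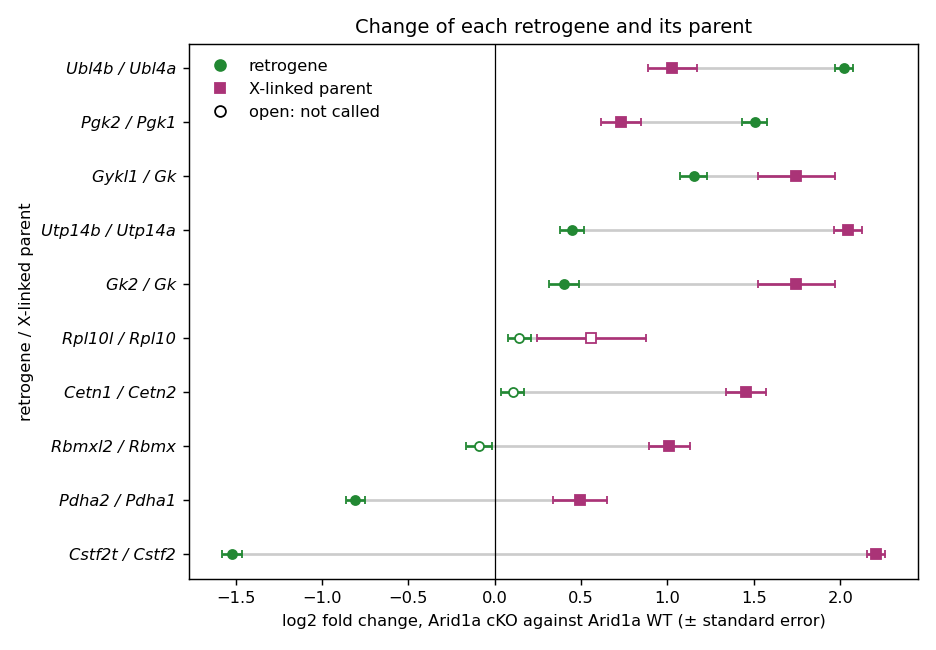
log2 fold change, Arid1a cKO against Arid1a WT, of each retrogene (green circles) and its X-linked parent (purple squares), with standard errors from edgeR (n = 4 per genotype) and open symbols for genes not called. Only Cstf2t and Pdha2 lie left of 0 among the called genes, and only Ubl4b and Pgk2 lie to the right of their parent.

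To ask whether the balance between copy and parent differed between genotypes, the log2 ratio of retrogene to parent, computed on TPM + 1 in each library, was compared by a two-sided exact permutation test. With 4 libraries per genotype the smallest p this test can give is 0.0286, and 10 ratios were tested without further adjustment. The ratio was lower in *Arid1a* cKO for 5 pairs, all at that smallest p. X-linked genes as a class had a median log2 fold change of 1.32 against -0.06 for autosomal genes, and the share of other autosomal and X-linked pairs with a lower ratio was not computed, so the count is not a result particular to these pairs. *Cstf2t* to *Cstf2* went from 0.81 ± 0.08 to -2.91 ± 0.03 (SD), a difference of -3.73. The *Utp14b* to *Utp14a* ratio also changed sign on this TPM scale, from 0.49 ± 0.16 to -0.68 ± 0.06. Its difference was -1.17 in TPM and -1.52 in CPM. Mean CPM of *Utp14b* and *Utp14a* was 33.7 and 10.9 in *Arid1a* WT and 45.95 and 44.8 in *Arid1a* cKO. The sign change was thus not seen in mean CPM. For *Cetn1* to *Cetn2* the difference was -1.21, for *Pdha2* to *Pdha1* it was -1.09 and for *Rbmxl2* to *Rbmx* it was -0.95. In the other direction, *Pgk2* to *Pgk1* rose by 0.85 and *Ubl4b* to *Ubl4a* by 0.75, both at p = 0.0286 in the exact test. The latter became 1.2 in CPM and 0.47 with an exact p of 0.0857 when 0.1 in place of 1 was added to TPM. The ratios of *Rpl10l* to *Rpl10* (difference -0.40, exact permutation p = 0.457), *Gk2* to *Gk* (-0.45, exact permutation p = 0.0857) and *Gykl1* to *Gk* (0.29, exact permutation p = 0.143) overlapped between the genotypes. With 0.1 in place of 1 added to TPM, the *Gk2* to *Gk* difference was -1.3 (exact permutation p = 0.0571) and the *Gykl1* to *Gk* difference turned to -0.55 (exact permutation p = 0.2), so no direction is given for the latter. The *Rpl10l* to *Rpl10* difference was -0.052 without *Arid1a* WT replicate 4 and -0.65 without *Arid1a* WT replicate 2.

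The summed TPM of copy and parent was compared in the same way. These sums leave out any further copy of a parent. Of the 9 sums 5 were higher in *Arid1a* cKO, each at an exact permutation p of 0.0286, the smallest possible. The groups did not overlap for 6 of the 9 sums, close to the 68.9% of all single genes tested whose CPM did not overlap. *Ubl4b* and *Ubl4a* together went from 36.2 ± 1.42 to 132 ± 3.07 TPM (SD, n = 4 each), and *Pgk2* and *Pgk1* from 277 ± 18.2 to 709 ± 22.2 TPM. *Utp14b* and *Utp14a* went from 17.1 ± 1.89 to 40.6 ± 0.719 TPM. *Cstf2t* and *Cstf2* went from 47.1 ± 2.63 to 88.3 ± 2.91 TPM, a sum 1.88-fold higher although the retrogene fell, and in CPM, which is not scaled to transcript length, the difference of the sums shrank from 0.89 to 0.28 on the log2 scale. The glycerol kinase trio went from 927 ± 94.9 to 1360.5 ± 57.02 TPM. The pyruvate dehydrogenase sum alone was lower, at 197 ± 8.37 to 103 ± 2.61 TPM (exact permutation p = 0.0286), 0.524 times the *Arid1a* WT value. No difference was called for *Rpl10l* and *Rpl10* (363 ± 18.8 to 368 ± 17.9 TPM, exact permutation p = 0.714), *Cetn1* and *Cetn2* (691 ± 47.3 to 684 ± 11.5 TPM, exact permutation p = 0.743) or *Rbmxl2* and *Rbmx* (96.1 ± 8.48 to 84.7 ± 9.83 TPM, exact permutation p = 0.114). With *Rbmxl1*, another autosomal copy of *Rbmx*, added after seeing the data, that sum was 122 to 138 TPM in *Arid1a* WT and 86.5 to 111 TPM in *Arid1a* cKO, without overlap (log2 difference -0.39, exact permutation p = 0.0286), although 87.4% of the *Rbmxl1* words occurred in other genes and its level is uncertain. The TPM of all listed genes made up 78.1% to 81.1% of the full TPM scale in *Arid1a* WT and 88.1% to 88.6% in *Arid1a* cKO, and after rescaling each library to its listed genes the *Cetn1* and *Rbmxl2* sums were lower in *Arid1a* cKO, at differences of -0.16 and -0.33 on the log2 scale (exact permutation p = 0.0286 each).

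**Figure D3:**
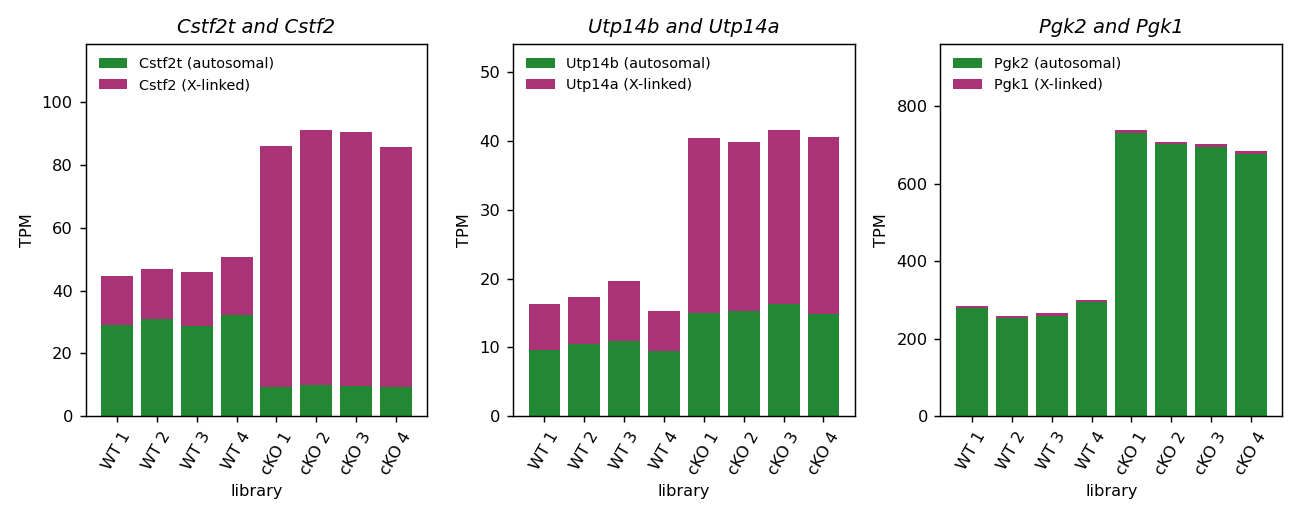
Stacked TPM of the autosomal retrogene (green) and its X-linked parent (purple) in each library for 3 pairs, each bar 1 library. The Cstf2 sum rises while its main component changes from the retrogene to the parent, the Utp14 sum rises mainly through the parent, and the Pgk sum rises through Pgk2.

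A further 15 autosomal copies of X-linked genes, listed from general knowledge, set the 10 in context. Of these, 14 had a value and *Thoc2l* was not analysed here. In *Arid1a* cKO 6 were called higher, 7 lower and 1 was not called, and their median log2 fold change was -0.15. Over all autosomal genes tested, 34.9% were called higher and 38.7% lower. Levels of the other copies are group means ± SD (n = 4 each). *G6pd2*, a copy of the pentose phosphate pathway enzyme gene *G6pdx*, went from 13.9 ± 1.14 to 64.9 ± 2.795 TPM (log2 fold change 2.36, SE 0.06, edgeR adjusted p = 8.28e-14), with 16.7% of its words shared with *G6pdx*. *Acot10*, an acyl-CoA thioesterase gene, went from 13.1 ± 0.909 to 60.5 ± 2.37 TPM (log2 fold change 2.35, SE 0.07, edgeR adjusted p = 5.65e-13). Its value is uncertain, since 57.0% of its words occurred in other genes, mostly in its parent *Acot9*, which had a log2 fold change of 2.31. *Rpl39l*, a ribosomal protein gene, went from 508 ± 27.3 to 611 ± 23.98 TPM (log2 fold change 0.40, SE 0.06, edgeR adjusted p = 4.91e-05). Among those that fell, *Timm8a2*, a copy of a mitochondrial import chaperone gene, went from 42.6 ± 4.59 to 13.1 ± 0.479 TPM (log2 fold change -1.58, SE 0.10, edgeR adjusted p = 1.96e-09). *Naa11*, a catalytic subunit gene of N-terminal acetylation, went from 21.1 ± 1.45 to 6.82 ± 0.424 TPM (log2 fold change -1.49, SE 0.08, edgeR adjusted p = 2.02e-10). *Zfa-ps*, a transcribed pseudogene copy of *Zfx*, went from 4.76 ± 0.339 to 1.71 ± 0.175 TPM (log2 fold change -1.24, SE 0.10, edgeR adjusted p = 5.67e-08), with 43.6% of its words shared with *Zfx*. Of 14 further parents, which include *Thoc2*, the parent of *Thoc2l*, and leave out *Rbmx*, counted above, 9 were called higher, 1 was called lower (*Ddx3x*) and 4 were not called, with a median log2 fold change of 0.74. Over all X-linked genes tested, 66.6% were called higher and 12.6% lower.

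**Figure D4:**
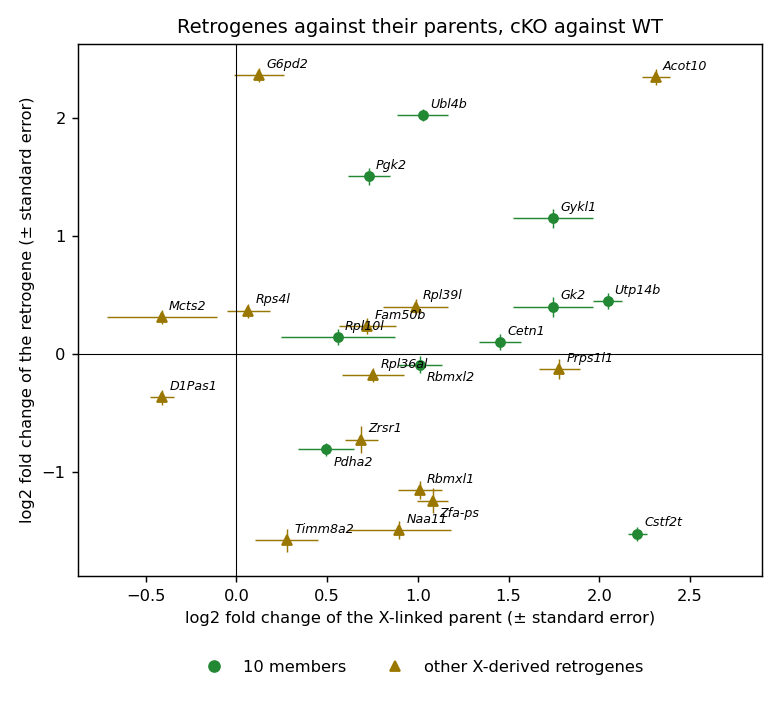
log2 fold change (Arid1a cKO against Arid1a WT) of each autosomal retrogene on the vertical axis against that of its X-linked parent on the horizontal axis, with standard errors, for the 10 retrogenes (circles) and 14 other copies (triangles). Most parents lie to the right of 0, while the retrogenes lie on both sides of 0 on the vertical axis.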

How the data were processed

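RNA of pachytene spermatocytes (4 *Arid1a* WT and 4 *Arid1a* cKO libraries) was sequenced as poly(A) mRNA. The authors quantified reads with Salmon on mm10 and summed them to Entrez genes. They deposited estimated counts and TPM per gene, one column per library. Versions, and whether Salmon used strand, are not given in the sources used here. A deposited table of the authors' own DESeq2 comparison (fold changes, p-values) was not used. Entrez identifiers of 21036 of the 21058 listed genes matched RefSeq (GRCm38.p6).

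Estimated counts were rounded, as the test needs whole numbers, and genes whose counts reached 10 in total over all libraries entered edgeR 4.0.16 (quasi-likelihood, TMM, genotype only, Benjamini-Hochberg adjusted p of 0.05 or less). Total counts differed by less than 1.5 times between libraries. Pair ratios and sums used TPM and the exact permutation test over the 70 assignments of 4 of 8 libraries. Replicates differed by more than counting noise and all were kept, and p-values measure the spread between these libraries. The sources used here do not say whether the 4 libraries of a genotype came from separate pools of males. The p-values may therefore not measure the spread between pools or animals. Alternatives used DESeq2 1.42.0, limma 3.58.1 (R 4.3.3), other filters, scalings and pseudocounts, a replicate block and leaving out each library. Words of 31 bases and coding alignments came from GENCODE M21 transcripts (Python 3.11.15, biopython 1.88).

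All 10 retrogenes and their parents are named, of the other copies the 3 higher and 3 lower with the largest change among those called, and the 3 autosomal genes closest to *Pgk2* whose average log2 CPM was at least 5. The rule for the retrogenes uses no measured value, but the retrogenes and lists were chosen with earlier results of these data known.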

Additional observations from a re-analysis of the deposited data

Results flagged for a closer look

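Of 78 groups of 4 libraries inspected over 39 measures, 1 held a library that stood apart from the rest, where chance alone would give about 3.9. The log2 ratio of *Cstf2t* to *Cstf2* was -2.96 in *Arid1a* cKO replicate 3, below the -2.90 to -2.89 of the other *Arid1a* cKO libraries, with a gap of 0.847 of the group's range. That library still lay far below the *Arid1a* WT mean of 0.81.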

How the results depend on the processing

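The calls of *Pgk2*, *Gykl1*, *Ubl4b*, *Utp14b*, *Gk2*, *Cstf2t* and *Pdha2* held under all 17 alternatives. Rescaling of TPM to the listed genes was applied to pair ratios and sums only, and was not among these 17. The number of the 10 retrogenes called higher ranged from 5 to 7 and the number called lower from 2 to 3. *Rpl10l* was called higher in 6 alternatives, *Rbmxl2* lower in 4 and *Cetn1* higher in 1 (0.18 without *Arid1a* WT replicate 4, against 0.10 with all libraries). *Pdha1* lost its call in 3, and *Rpl10* gained one in 3, with log2 fold changes of 0.58 to 0.86. With 1 library left out, the *Rpl10* value ranged from 0.32 (without *Arid1a* WT replicate 4) to 0.86 (without *Arid1a* WT replicate 2). The *Ubl4b* to *Ubl4a* ratio was 0.47 with 0.1 added to TPM (exact permutation p = 0.0857). With TPM rescaled to the listed genes, an alternative chosen after seeing the data, the *Cetn1* and *Rbmxl2* sums differed by -0.16 and -0.33 (exact permutation p = 0.0286 each). With *Rbmxl1* added, likewise chosen after seeing the data, the latter differed by -0.39 (exact permutation p = 0.0286). The causes were not tested. The replicate block gave 6 retrogenes higher and 2 lower, and 9 parents higher, the added calls being *Rpl10l* and *Rpl10*. Same-numbered libraries deviated together with correlations of 0.31, 0.08, 0.19 and -0.07, and 2 of 4 numbers matched best with their own. With so few libraries this cannot settle whether the numbers pair samples, and the labels do not say. The libraries were treated as unpaired. Pair ratios and sums without 1 library cannot go below p = 0.0571 in the exact test, nor the sign-flip test of numbered pairs below 0.125, and they give values only.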

Other observations

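*Utp14b* and *Cstf2t* each lie within the span of a larger gene that moved the other way. *Gk2* also overlaps an annotated gene, *4930467D21Rik*, which was not examined. *Utp14b*, which is transcribed on the strand of *Acsl3*, a long-chain acyl-CoA synthetase gene, had a log2 fold change of 0.45 (SE 0.07), while *Acsl3* went from a mean of 50.4 to 12.97 TPM, at a log2 fold change of -2.05 (SE 0.07). *Cstf2t*, which lies on the opposite strand to *Prkg1*, a cyclic GMP-dependent protein kinase gene, had a log2 fold change of -1.52 (SE 0.06), while *Prkg1* went from 35.1 to 176 TPM, a 4.001-fold higher CPM. Of the *Utp14b* words, 2.43% were shared with *Acsl3*.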
